A study of Mus musculus with 14 samples.

Results

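Promoter windows are the stretches of open chromatin that lie at the start sites of protein-coding genes. They were chosen by position alone, as the windows of the accessibility table whose centre lay within 1 kb of the start site of a protein-coding gene in RefSeq coordinates of GRCm38. No accessibility value entered this rule, although it was set with earlier results of these data known. There were 47044 such windows of 240778 in all (19.5%), against 193734 windows farther away, of which 55.4% lay inside a gene. The assay was bulk ATAC-seq, in which a transposase cuts and tags open chromatin, and the cells were Treg cells of the spleen and lymph nodes. All 14 mice carried Foxp3AID, an allele in which Foxp3 is fused to an auxin-inducible degron and which also encodes the ZsGreen reporter and Cre, and all received the ligand 5-ph-IAA. R26TIR1(F74G) mice also carried the receptor that lets the ligand trigger degradation of Foxp3. It lies behind a stop cassette that Cre removes, so that only cells in which Foxp3AID is or has been active make it. R26WT mice lacked it. Cells were taken after 3 days of ligand from 4 R26TIR1(F74G) and 4 R26WT mice and after 7 days from 3 of each.

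Several features of the model bear on every comparison. The methods sort ZsGreen+ cells from R26WT mice but cells that are also mCherry+ from R26TIR1(F74G) mice, so that the gate changed along with the genotype. The study describes Foxp3AID/WT mice, whose remaining Treg cells keep wild-type Foxp3, whereas the labels give neither that, nor age, nor activation state. The share of cells with an open window and the openness per cell cannot be told apart in such bulk samples, nor can genotype and gate. Because only the Foxp3 protein is lost, chromatin at the Foxp3 gene is no check of the degradation. Totals ranged from 5653289 counts (day 3 R26TIR1(F74G) replicate 1) to 20184487 (day 7 R26TIR1(F74G) replicate 3), and the other shallow library was day 7 R26WT replicate 3 with 6348754. The 18 pairs of replicates were farther apart than sampling of reads alone gives (chi-square per degree of freedom from 1.62 to 2.46). Each column of the table names a mouse of its own. Reads were not marked by molecule, so that errors of counting are lower limits.

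A promoter is the stretch of DNA at which RNA polymerase II and the general transcription factors assemble before a gene is transcribed. Active promoters keep a short region upstream of the start free of nucleosomes, which is why a transposase cuts there most readily. In mammals many promoters, mainly those of genes used in all cells, are rich in CpG, the dinucleotide C followed by G, and are open in nearly every cell type, whereas promoters of genes restricted to certain cells often hold few CpG. Foxp3, the transcription factor that defines Treg cells, binds mostly to chromatin that is already open.

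Promoter sequences show these kinds side by side. Sequences were taken from RefSeq for GRCm38.p6, where 17274 of the 21215 genes with a start site had an entry. The 150 bases before the start are printed from 5′ to 3′ on the strand of the gene, in lower case with each CpG in capitals. Lnpep and Cnot3 held the most accessible promoter windows and Klf2 the most accessible promoter among markers of resting Treg cells. Il2ra and Ctla4 encode the IL-2 receptor α chain and an inhibitory receptor, both typical of Treg cells, and Il2 and Ifng encode cytokines of effector T cells.
Lnpep, chr17:17624490-17624639, minus strand: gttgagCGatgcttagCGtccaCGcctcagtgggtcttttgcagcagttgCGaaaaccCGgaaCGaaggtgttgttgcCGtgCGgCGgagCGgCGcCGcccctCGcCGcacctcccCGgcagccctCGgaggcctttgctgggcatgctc
Cnot3, chr7:3645119-3645268, plus strand: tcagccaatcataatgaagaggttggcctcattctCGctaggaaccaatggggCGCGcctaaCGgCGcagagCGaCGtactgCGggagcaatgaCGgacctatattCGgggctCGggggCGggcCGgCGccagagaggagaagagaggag
Klf2, chr8:72318912-72319061, plus strand: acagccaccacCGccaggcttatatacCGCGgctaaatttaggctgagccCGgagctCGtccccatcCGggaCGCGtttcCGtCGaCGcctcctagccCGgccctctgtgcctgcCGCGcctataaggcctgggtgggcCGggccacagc
Il2ra, chr2:11642642-11642791, plus strand: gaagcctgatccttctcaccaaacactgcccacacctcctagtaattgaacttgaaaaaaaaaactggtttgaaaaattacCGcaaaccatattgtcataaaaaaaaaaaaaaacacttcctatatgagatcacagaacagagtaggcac
Ctla4, chr1:60908875-60909024, plus strand: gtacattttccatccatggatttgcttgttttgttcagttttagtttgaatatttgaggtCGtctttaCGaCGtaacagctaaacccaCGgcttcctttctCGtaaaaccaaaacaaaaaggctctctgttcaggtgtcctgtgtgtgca
Il2, chr3:37125955-37126104, minus strand: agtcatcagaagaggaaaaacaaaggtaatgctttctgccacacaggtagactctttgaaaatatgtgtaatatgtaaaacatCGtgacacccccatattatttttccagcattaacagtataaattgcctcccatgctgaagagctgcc
Ifng, chr10:118440896-118441045, plus strand: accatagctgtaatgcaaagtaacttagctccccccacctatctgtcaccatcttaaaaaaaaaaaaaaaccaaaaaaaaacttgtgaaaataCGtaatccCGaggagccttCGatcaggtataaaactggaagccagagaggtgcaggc

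In these stretches Lnpep held 16 CpG, Klf2 15 and Cnot3 14, whereas Ctla4 held 5, Ifng 3, and Il2ra and Il2 1 each. The most accessible promoter window of Lnpep reached a mean of 97.6 CPM, that of Cnot3 95.5 and that of Klf2 60.9. CPM is the count scaled to the library's total after TMM normalization, and all windows span the same length, so that levels can be compared between windows. Ctla4 reached 15.2 CPM and Il2ra 13.2, whereas Il2 stood at 1.86 and Ifng at 0.954. The Cnot3 sequence starts 22 bp from the RefSeq start of the gene and the other sequences at it.

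Promoter windows were near 11632 of the 21215 protein-coding genes with a known start (54.8%). Of these genes, 9806 had 3 or more windows within 1 kb, 1280 had 2 and 546 had 1, and the most for any gene was 15. In all, 4540 promoter windows (9.65%) lay near 2 or more genes, as at divergent gene pairs. Overlap was common, since 22210 promoter windows overlapped another window, and a read there can be counted more than once. More promoter windows had their centre downstream of the start site (28071) than upstream (18973).

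Accessibility peaked just upstream of the start site. The median over windows was 18 CPM from 100 bp upstream to the start and 14.2 CPM in the next 100 bp, and it was 2.21 CPM at the upstream limit and 2.65 CPM at the downstream limit of the 2 kb stretch. Each gene was represented by its promoter window with the highest mean count, and the median position of that window was 0.5 bp upstream of the start. It lay within 200 bp of the start in 69.6% of genes. A second rise stood at 200 to 300 bp downstream, with a median of 7.63 CPM against 6.55 CPM in the 100 bp before it. At the limit of the rule the step was small, with a median of 2.49 CPM in the 6187 windows at 800 to 1000 bp and of 2.58 CPM in the 4125 windows at 1000 to 1200 bp.

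**Figure D1:**
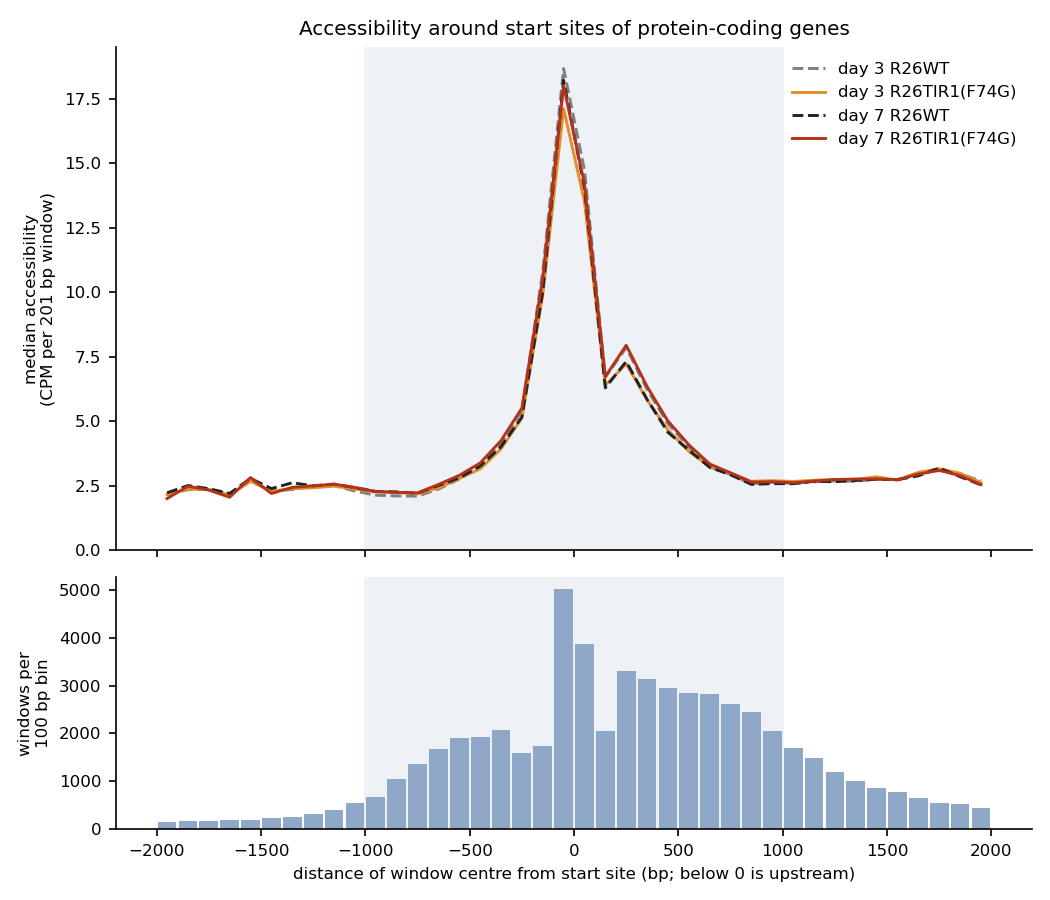
Median accessibility (CPM per window) in 100 bp bins around start sites for each group of mice (upper panel) and the number of windows in each bin (lower panel), with the stretch within 1 kb shaded. The median peaks at 18 CPM just upstream of the start, and the lines of the 4 groups lie close to each other.

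Promoter windows were the more accessible class. Their median was 4.49 CPM, against 1.56 CPM in windows farther away, and 58.3% of them had a mean count of at least 50, against 20.3% farther away. Of the 1000 most accessible windows in the table, 862 were promoter windows (86.2%), as were 7482 of the top 10000 (74.8%). Promoter windows near 2 or more genes had a median of 8.29 CPM and those near 1 gene 4.20 CPM. On the X chromosome the median was 3.15 CPM. No test was run on these levels, since windows of the same mice are not replicates.

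The 10 most accessible promoter windows lay at Lnpep, Cnot3, Hbp1, Zfp654 and Pdcd10, with 3 windows each at Lnpep and Hbp1, 2 at Zfp654 and 1 at each of the others. Lnpep encodes a membrane aminopeptidase, Cnot3 a subunit of the CCR4-NOT complex that shortens mRNA tails, and Hbp1 a repressor of transcription. The Lnpep window on chromosome 17 from 17624581 to 17624782 ranged from 83.7 to 114 CPM over the 14 mice, with a median of 96.7. The Cnot3 window (chromosome 7, 3644936 to 3645137) ranged from 85.8 to 109 CPM and the Hbp1 window (chromosome 12, 31950336 to 31950537) from 75.3 to 107 CPM. Taking 1 window per gene, the next in order were Ube2d3 (87.7 CPM), Pja2 (87.3), Klf13 (85.5), Suco (84.8) and Etnk1 (84.6). The spread over mice overlapped between all of these neighbours.

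Gene classes differed in how many members had a promoter window. None of 12 genes restricted to other tissues had one, among them Alb of liver, Ins2 of pancreas and Myod1 of muscle. All 16 cell cycle genes, all 13 early response genes and all 11 heat shock genes did, as did 74 of 80 ribosomal protein genes and 67 of 76 genes of the respiratory chain and ATP synthase. Over all genes the share was 54.8%. Families with at least 30 genes, grouped by the stem of their symbols after these values were seen, ranged from none of 56 Krtap and 53 Krt genes to 29 of 30 Med genes. Krtap genes encode keratin-associated proteins, Krt genes encode keratins and Med genes encode subunits of Mediator. Of 945 Olfr genes, which encode odorant receptors, 12 had a promoter window (1.27%), and of 352 Vmn genes, which encode vomeronasal receptors, 2 did (0.568%). At the other end stood 46 of 49 Mrpl genes of the mitochondrial ribosome, 50 of 55 Eif genes of translation initiation and 59 of 69 Rab genes of vesicle traffic. A gene without a window is one for which the table used here holds none within 1 kb, and the table holds fewer windows than the study's methods count.

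T cell genes carried open promoters. Of 14 T cell identity genes 13 had a promoter window, with a median of 15.5 CPM over their most accessible windows and with Bcl11b (23.5), Runx1 (22.9) and Cd28 (21.5) among the highest; Gata3 had none. Bcl11b and Runx1 encode transcription factors of T cell development, and Cd28 the costimulatory receptor. The median over all 11632 genes was 18.5 CPM. Of 13 Treg identity genes 11 had a window (median 9.93 CPM), led by Capg (24.7), Ikzf2 (20.9), Ctla4 (15.2) and Gpr83 (14.4). Foxp3 and Tnfrsf18 had none, and the windows nearest to the start of Foxp3 lay 4338.5, -4585.5 and 4904.5 bp from it, with the minus sign marking upstream. Among 11 genes named in the study, 9 had a promoter window, with Id2 (41.6 CPM) and Sox4 (29.5 CPM) the highest and Il2rb (1.14 CPM) the lowest.

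All 10 markers of resting Treg cells had a window, with a median of 24.4 CPM and with Klf2, Bcl2 (31.7), Bach2 (29.5) and Ccr7 (27.7) at the top. Klf2 and Bach2 encode transcription factors of quiescent lymphocytes, Bcl2 a survival factor and Ccr7 the chemokine receptor that guides cells into lymph nodes. Of 15 markers of activated Treg cells 9 had one (median 10.2 CPM), led by Prdm1 (30.2), Maf (18.4), Batf (14.9) and Irf4 (10.7), transcription factors induced by activation. Ccr4, Ebi3, Il10, Itgae, Klrg1 and Tnfrsf9 had none. Of 11 effector cytokine genes 4 had a window, with a median of 1.67 CPM and Tnf (6.61), Il2, Csf2 (1.49) and Ifng as members; none lay at Il4, Il5, Il13, Il17a, Il17f, Il21 or Il22.

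Markers of B cells and myeloid cells had few and weak promoter windows. Of 10 B cell markers 3 had one, Cr2 (6.55 CPM), Ebf1 (3.50) and Cd79b (1.33), and none lay at Ms4a1, Cd79a or Pax5. Of 10 myeloid markers 4 had one, led by Cd14 (4.48) and Spi1 (4.22), and none lay at Lyz2, Csf1r or S100a8. Of 8 CD8 T cell and NK cell markers 6 had one, with Cd8b1 at 12.5 CPM, Prf1 at 8.31 and Cd8a at 1.33. Of 13 interferon response genes 12 had one, with a median of 16.8 CPM. Among the open promoters of housekeeping and stress genes, Hspa8 (84.4 CPM), Jun (79.8), Rps29 (65.5) and Pcna (59.7) were the highest of their lists, apart from a window at Atp5j (65.7 CPM) whose nearest start is that of Gabpa.

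**Figure D2:**
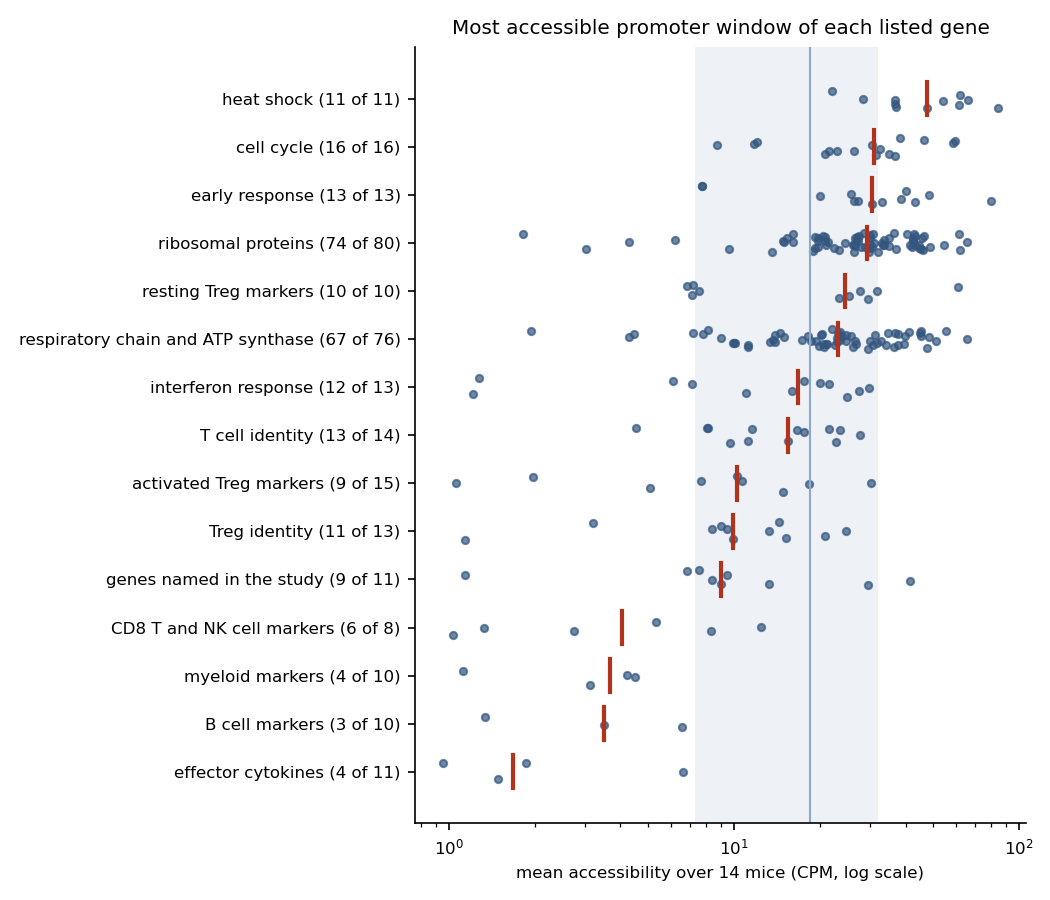
Mean accessibility over the 14 mice (CPM, log axis) of the most accessible promoter window of each listed gene, 1 point per gene, with list medians as red bars, the median of all genes as a line and their quartiles shaded. Heat shock genes have the highest median (47.7 CPM) and effector cytokine genes the lowest (1.67 CPM); labels give the genes with a window of those with a start site.

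Promoters rich in CpG were open far more often. The 300 bases around the start were used for the 12503 genes whose RefSeq sequence starts within 50 bp of the gene's start, of which 6701 had a promoter window (53.6%). The ratio of observed to expected CpG was under 0.3 in 4362 of them, and 11.2% of these had a promoter window. The share was 50.3% of 2402 genes with a ratio from 0.3 to 0.6, 85.6% of 3722 genes from 0.6 to 0.9 and 90.1% of 2017 genes at 0.9 or more. Where a window was present, its median was higher in the same order, with 4.88, 11.8, 22.2 and 26.3 CPM. Il2ra stood in the lowest class with a ratio of 0.23, and Lnpep had a ratio of 0.834 and Klf2 one of 0.889. The median GC content was 45.0% in the lowest class and 66.0% in the highest, so that CpG and GC content were not separated, and base composition can also affect amplification and sequencing.

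**Figure D3:**
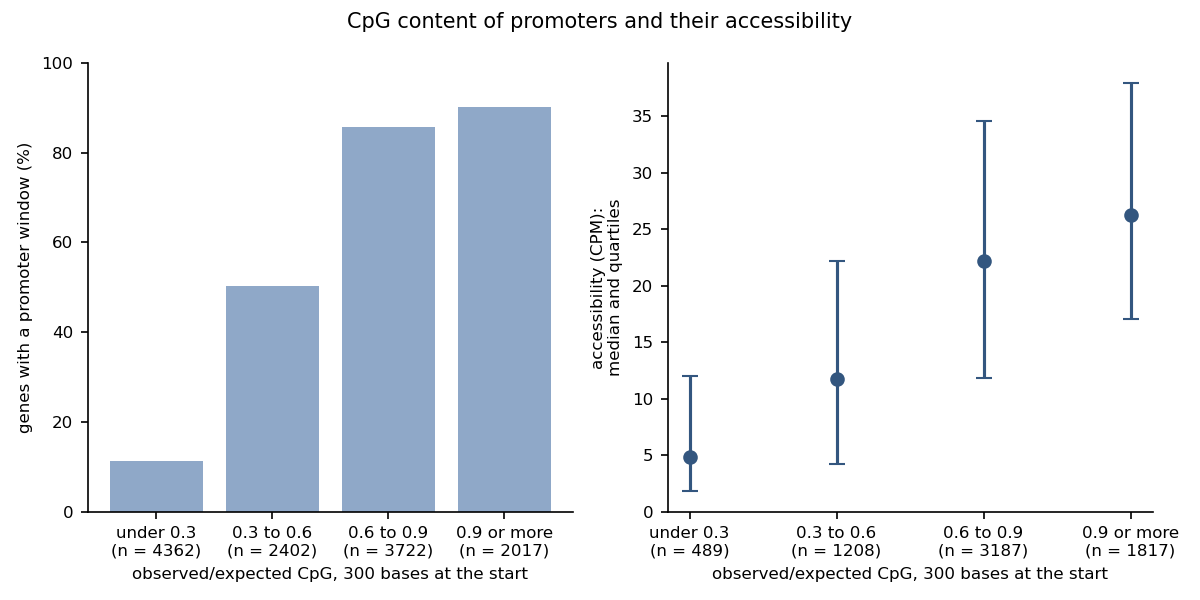
Share of genes with a promoter window (left, bars) and accessibility of the window where present (right, points for the median and bars for the quartiles, CPM) by class of observed to expected CpG in the 300 bases around the start. Both are lowest in the lowest class (11.2% and 4.88 CPM) and highest in the highest (90.1% and 26.3 CPM).

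Short motifs were searched on both strands of the same 300 bases. The GC box GGGCGG, bound by SP and KLF factors, was held by 66.2% of promoters with a window and 18.6% of those without (44.1% of all). The ETS motif CCGGAAG was held by 19.6% and 3.10% (11.9% of all), the NRF1 motif GCATGCGC by 6.01% and 1.12% (3.74%), the cAMP response element TGACGTCA by 3.81% and 0.948% (2.48%) and the YY1 motif AAGATGGC by 5.10% and 1.34% (3.36%). All of these motifs but that of YY1 contain CpG. CCAAT, bound by NFY, was about as common in both (41.1% and 41.3%; 41.2% of all). The TATA box TATAAA was held by 7.13% of promoters with a window and 25.2% of those without (15.5% of all). The remaining motifs were also less common in promoters with a window. The shares were 2.34% and 4.07% for the forkhead motif TGTTTAC (3.14% of all) and 3.79% and 6.64% for the RUNX motif TGTGGTT (5.11%). They were 6.82% and 10.1% for the STAT motif TTCNNNGAA (8.35%) and 4.36% and 11.2% for the AP-1 motif TGANTCA (7.53%). The heat shock element GAANNTTC was held by 5.75% and 10.6% (8.01% of all) and the interferon response element GAAANNGAA by 7.16% and 10.5% (8.69%). The STAT, heat shock and interferon motifs can share bases where they meet. A match shows only that the letters are present. The share of promoters with a window rose with CpG content, as given above, and the part of base composition in these motif shares was not tested.

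The share of counts in promoter windows lay between 42.5% and 46.6% in all 14 mice. On day 3 it was 44.7%, 45.1%, 46.2% and 46.6% in R26WT mice (45.6% ± 0.927, SD, n = 4) and 43.8%, 46.0%, 42.5% and 44.1% in R26TIR1(F74G) mice (44.1% ± 1.46, SD, n = 4). On day 7 it was 45.7%, 45.9% and 42.5% in R26WT mice (44.7% ± 1.91, SD, n = 3) and 45.8%, 44.9% and 46.1% in R26TIR1(F74G) mice (45.6% ± 0.587, SD, n = 3). The genotypes overlapped on both days, and the mean difference of R26TIR1(F74G) minus R26WT was -1.56 percentage points on day 3 and 0.92 on day 7. Without day 7 R26WT replicate 3, a shallow library with one of the lowest shares, the day 7 difference was -0.18. The letters that open the mouse names were unevenly spread over the groups. Among day 3 mice whose names open with AC, the mean was 45.3% in R26WT (n = 3) and 44.9% in R26TIR1(F74G) mice (n = 2). On day 7 these means were 44.7% (n = 3) and 45.4% (n = 2). Shares are described and not tested.

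**Figure D4:**
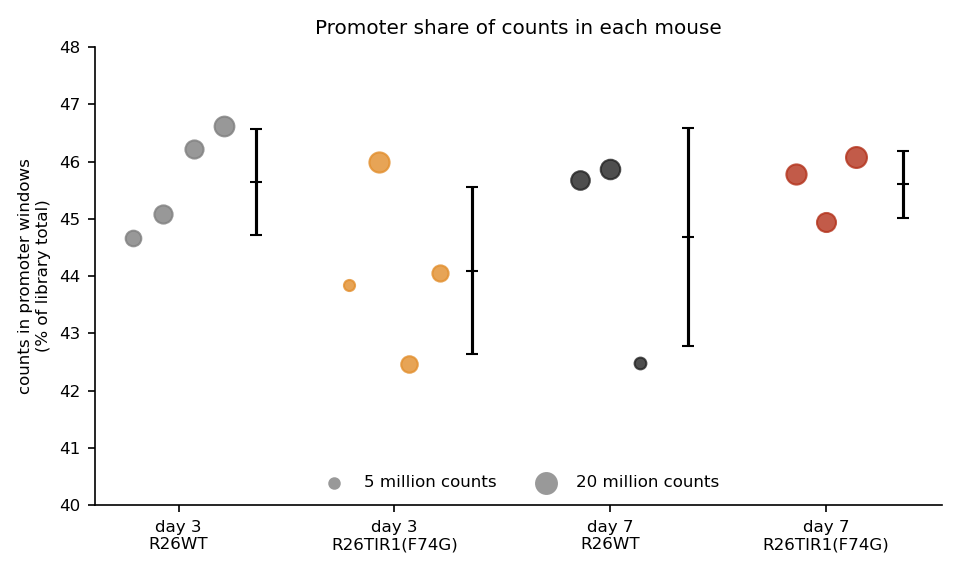
Share of each library's counts in promoter windows (% of its total, axis from 40 to 48) by group, 1 point per mouse with its area scaled to the total count, and mean ± SD beside the points. The groups overlap, between 42.5% and 46.6%, and the 2 small points are the shallow libraries.

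Differences between groups were tested with edgeR's quasi-likelihood test over all windows averaging 10 or more counts over the libraries compared, with Benjamini-Hochberg adjustment over all of them and a threshold of 0.05. On day 7, 3 of 46914 promoter windows differed between the genotypes, all higher in R26TIR1(F74G) mice, against 0.00463% of all windows tested. An unadjusted p under 0.05 was reached by 2627 promoter windows (5.60%), 1638 in the higher and 989 in the lower direction, against 5.95% of all windows. The groups did not overlap in 12.2% of promoter windows, against 11.8% of all windows. The median log2 fold change was 0.03 in promoter windows and -0.02 in windows farther away. Among promoter windows averaging 50 or more counts, 95% of log2 fold changes lay between -0.28 and 0.39, with a median standard error of 0.15. The number was 0 with DESeq2, 0 with a term for the letters that open the mouse names, 0 without R26TIR1(F74G) replicate 1 or replicate 3, and 9 without R26TIR1(F74G) replicate 2. On day 7 only R26TIR1(F74G) replicate 3 had other opening letters, so that the term for them and leaving out that mouse gave nearly the same fit. The direction also depended on the setting: without R26WT replicate 3, a shallow library, 2 windows passed and both were lower, and without R26WT replicate 1, 3 were higher and 1 lower, with none of the 3 windows of all mice among them. Loess offsets gave 4 higher and 1 lower, and a minimum mean count of 50 gave 5 higher and 3 lower.

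The 3 windows lay within Hspa1b, which encodes an inducible chaperone of the HSP70 family, downstream of its start on chromosome 17. The window from 34958480 to 34958681, centred 657.5 bp from the start, had 4.13, 7.21 and 2.55 CPM in R26WT mice and 16.7, 6.91 and 11.5 CPM in R26TIR1(F74G) mice on day 7. The lowest R26TIR1(F74G) mouse, replicate 2, thus stood just below the highest R26WT mouse. The log2 fold change was 1.23 (SE 0.22, adjusted p = 0.0498, edgeR). The window centred at 240.5 bp (34958897 to 34959098) had 10.5, 15.8 and 9.0 CPM in R26WT mice and 27.1, 15.7 and 28.0 CPM in R26TIR1(F74G) mice, with a log2 fold change of 0.96 (SE 0.17, adjusted p = 0.0485, edgeR). The window centred at 302.5 bp (34958835 to 34959036), which overlaps the one at 240.5 bp, had a log2 fold change of 0.94 (SE 0.17, adjusted p = 0.0497, edgeR), and here the groups did not overlap by a narrow margin, with 16.2 CPM in the lowest R26TIR1(F74G) mouse and in the highest R26WT mouse. In 19 refits of the day 7 data the window at 657.5 bp passed in 11, with log2 fold changes from 0.88 to 1.72. The refits with the term for the mouse names and without R26TIR1(F74G) replicate 3 are nearly the same fit. The window at 240.5 bp passed in 12, and without R26TIR1(F74G) replicate 1 or 3 or R26WT replicate 1 or 3 it did not pass, with log2 fold changes of 0.86, 0.83, 0.85 and 0.84.

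On day 3 the genotypes overlapped at these Hspa1b windows. The window at 240.5 bp had 18.2, 15.0, 21.4 and 18.5 CPM in R26WT mice and 14.2, 25.9, 7.38 and 21.7 CPM in R26TIR1(F74G) mice, with a log2 fold change of -0.05 (SE 0.17, adjusted p = 0.973, edgeR). The test of the difference between days gave an adjusted p of 0.54 for it (edgeR, interaction). The other 6 Hspa1b windows within 1 kb had log2 fold changes from 0.17 to 1.33 on day 7 and did not pass.

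The neighbouring gene Hspa1a is a near copy of Hspa1b, and their promoters are printed below with the heat shock element in capitals. The 150 bases before the start were identical at 149 positions (99.3%), with the substitution G149T from Hspa1b to Hspa1a, counted from 1 at the 5′ end. Reads from these bases cannot be assigned with certainty to either gene. How alike the genes are downstream of the start, where the windows that passed lie, was not computed.
Hspa1b, chr17:34959239-34959388, minus strand: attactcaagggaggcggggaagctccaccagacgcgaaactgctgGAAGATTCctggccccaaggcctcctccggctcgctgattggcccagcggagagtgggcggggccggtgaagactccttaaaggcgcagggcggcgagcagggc
Hspa1a, chr17:34972157-34972306, minus strand: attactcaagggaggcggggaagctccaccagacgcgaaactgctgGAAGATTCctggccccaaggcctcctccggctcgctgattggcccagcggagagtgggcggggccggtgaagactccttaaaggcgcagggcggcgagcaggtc

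The Hspa1a window centred 671.5 bp from its start had 4.01, 5.52 and 3.15 CPM in R26WT mice and 13.4, 4.23 and 10.1 CPM in R26TIR1(F74G) mice on day 7, with R26TIR1(F74G) replicate 1 the highest and R26WT replicate 3 the lowest, as at the Hspa1b window centred at 657.5 bp. The list of heat shock genes holds Hspa1b and was chosen with earlier results of these data known. Over the 11 heat shock genes, each by its most accessible promoter window, none passed the test on day 7. Of these, 5 had an unadjusted p under 0.05 in the higher direction and none in the lower. The median log2 fold change was 0.21. On day 7, 10546 of the most accessible windows of all genes were tested. Of these, 162 had such a p in the higher direction and 374 in the lower, with a median of -0.02. The median of the heat shock list was -0.13 on day 3 and 0.01 over both days, with none at such a p in either direction. The 5 on day 7 were the windows of Hspa1b, Hspa1a, Hsp90ab1, Hspe1 and Hspd1, of which the last pair share 1 window. That window averaged 31.7 ± 2.23 CPM in R26WT mice against 40.6 ± 2.79 CPM in R26TIR1(F74G) mice (SD, n = 3 each), and the log2 fold change of Hspe1 was 0.35 (SE 0.12, adjusted p = 0.692, edgeR).

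Heat shock promoters also varied between mice of the same group. As the mean deviation of the list from its own average on the log2 scale, mice ranged from -0.42 (day 3 R26TIR1(F74G) replicate 3) to 0.27 (day 3 R26WT replicate 4), against -0.18 to 0.16 over all genes, in the same mice. On day 7 the list stood at -0.10, 0.01 and -0.31 in R26WT mice and at 0.20, -0.05 and 0.15 in R26TIR1(F74G) mice. The lowest of these was replicate 3, the shallow library, in which all genes together stood at -0.10. The part of depth in the heat shock values was not tested.

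On day 3 none of 46805 promoter windows differed between the genotypes, against 0% of all windows tested (smallest adjusted p = 0.229 among promoter windows, edgeR; DESeq2 gave 0). An unadjusted p under 0.05 was reached by 3991 promoter windows (8.53%), 2999 in the lower and 992 in the higher direction, against 7.55% of all windows. The groups did not overlap in 4.82% of promoter windows, against 4.1% of all windows. The median log2 fold change was -0.06 in promoter windows and 0.03 in windows farther away. This offset depended on the scaling, and with TMM factors from promoter windows alone the median was 0.01. It also depended on single mice. Without R26TIR1(F74G) replicate 3, the mouse with the lowest promoter share, the median was -0.03 and 2419 of 46704 promoter windows had an unadjusted p under 0.05. Without R26TIR1(F74G) replicate 2 the median was -0.09 and 5443 of 46568 had such a p. The windows named by size here were lower in R26TIR1(F74G) mice and none passed. They lay at Exosc4 (log2 fold change -0.75, SE 0.20), Ppfia3 (-0.70, SE 0.19) and Plpp6 (-0.69, SE 0.19), with adjusted p from 0.414 to 0.426 (edgeR).

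On day 3, over the 74 ribosomal protein genes with a promoter window, the median log2 fold change was -0.17, with 20 at an unadjusted p under 0.05 in the lower direction and none in the higher. For the respiratory chain and ATP synthase it was -0.11 with 11 of 67 at such a p in the lower direction, for T cell identity genes -0.22 with 4 of 13 and for the 16 cell cycle genes -0.12 with 4. Over the most accessible windows of all genes it was -0.11, with 1362 of 10541 lower and 160 higher. The mean log2 deviation of each of these lists was lowest in day 3 R26TIR1(F74G) replicate 3 and highest in day 3 R26WT replicate 4. For the ribosomal list these values were -0.27 and 0.20, and over all genes -0.18 and 0.16, in the same mice. On day 7 the ribosomal median was -0.04, and 2 of 74 windows had such a p. By CpG class, the day 3 median went from -0.07 in the lowest class to -0.14 in the highest, and the day 7 median was -0.03 in both.

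When both days were fitted together, with a term for day, 3 of 47044 promoter windows differed, all higher in R26TIR1(F74G) mice, against 0.0112% of all windows tested. An unadjusted p under 0.05 was reached by 3111 promoter windows (6.61%), against 6.73% of all windows, and the groups did not overlap in 43 promoter windows (0.0914%), against 0.116% of all windows. DESeq2 gave 49 promoter windows, of which 43 were lower, and a minimum mean count of 50 gave 20, of which 15 were lower. Both kept the pair at Gm51999, and the remaining window, at Gm21297, had no adjusted p in either. DESeq2 gave no adjusted p for 29941 of the 47044 promoter windows. With TMM factors from windows farther away the number was 0, as it was without day 3 R26TIR1(F74G) replicate 2 or 4, day 3 R26WT replicate 1 or 2, day 7 R26TIR1(F74G) replicate 2 or 3, or day 7 R26WT replicate 1 or 2. Without day 3 R26TIR1(F74G) replicate 1 it was 6, with 3 lower, and without day 7 R26WT replicate 3 it was 3, with 2 lower. Total counts and loess offsets each added 1 lower window, beside 3 and 7 higher.

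A pair of overlapping windows lay near the start of the predicted gene Gm51999, which is inside Foxn3, a gene for a forkhead transcription factor, on chromosome 12. The window from 99392964 to 99393165, centred 898.5 bp from the Gm51999 start, had 8.74 to 12.2 CPM in the 7 R26WT mice (median 10.6) and 12.1 to 20.3 CPM in the 7 R26TIR1(F74G) mice (median 15.8). Only the lowest R26TIR1(F74G) mouse stood below the highest R26WT mouse. The log2 fold change was 0.56 (SE 0.10, adjusted p = 0.0311, edgeR), with 0.55 on day 3 and 0.57 on day 7. It passed in 17 of 27 refits, with log2 fold changes from 0.51 to 0.62 and adjusted p up to 0.0997. The other of the pair, at 864.5 bp, had a log2 fold change of 0.55 (SE 0.11, adjusted p = 0.0429, edgeR).

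The remaining window lay at the predicted gene Gm21297 (chromosome 12, 24251957 to 24252158) and was weak, with a mean count of 16.5. It had 0.3 to 0.93 CPM in R26WT mice and 0.54 to 2.16 CPM in R26TIR1(F74G) mice, with a log2 fold change of 1.41 (SE 0.28, adjusted p = 0.0429, edgeR). The groups overlapped, and it passed in 7 of 25 refits.

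Lat encodes the adaptor that links the T cell receptor to its signaling cascades. Its promoter window on chromosome 7 from 126369452 to 126369653, centred 152.5 bp downstream of the start, had 15.8 to 20.2 CPM in the 7 R26WT mice (median 18.4) and 11.0 to 15.4 CPM in the 7 R26TIR1(F74G) mice (median 12.5). Every R26TIR1(F74G) mouse thus stood below every R26WT mouse. The window was named by size among windows whose groups did not overlap, so that this separation was part of the choice. The log2 fold change was -0.44 (SE 0.09), -0.47 on day 3 and -0.41 on day 7. The adjusted p was 0.0873 (edgeR), so that it did not pass, and it passed in 3 of 27 refits, 1 of them DESeq2. Ppfia3 (-0.52, SE 0.14) and Tbc1d30 (-0.44, SE 0.13) were named by the same rule and did not pass.

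Promoters of Treg genes did not differ past the threshold. Over both days none of the 11 Treg identity genes passed, with 3 lower at an unadjusted p under 0.05 and a median log2 fold change of -0.11, against 1201 of 10554 lower, 111 higher and -0.07 over the most accessible windows of all genes. Il2ra had 14.8 ± 1.73 CPM in R26WT and 11.2 ± 1.20 in R26TIR1(F74G) mice on day 3 (SD, n = 4), and 15.0 ± 2.97 and 12.1 ± 0.73 on day 7 (SD, n = 3). The day 3 groups did not overlap, and the log2 fold change over both days was -0.37 (SE 0.10, adjusted p = 0.378, edgeR). For Tnfrsf4, a costimulatory receptor, it was -0.31 (SE 0.11, adjusted p = 0.563, edgeR). Ctla4 had a mean of 15.6 CPM in R26WT and 15.4 CPM in R26TIR1(F74G) mice on day 3, and 15.7 and 14.1 CPM on day 7. Birc5, the survivin gene of dividing cells, had the most negative log2 fold change of the cell cycle list (-0.38, SE 0.09, adjusted p = 0.196, edgeR), and it passed in 3 of 27 refits, 1 of them DESeq2. Activated markers (median -0.01), effector cytokines (-0.06), B cell markers (-0.19, 3 genes), myeloid markers (-0.12, 4 genes) and interferon response genes (-0.09) had no gene whose most accessible window passed.

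Of 47044 promoter windows tested none passed the test of a difference between days in the genotype effect (the interaction), against 0% of all windows (smallest adjusted p = 0.476, edgeR; DESeq2 also gave 0), while 3306 reached an unadjusted p under 0.05 (7.03%), against 6.32% of all windows. The median was 0.09 in promoter windows and -0.05 farther away, and with TMM factors from promoter windows it was -0.01. Named by size, Adssl1, which encodes a muscle form of adenylosuccinate synthase, had log2 fold changes of -0.40 on day 3 and 0.71 on day 7. Its window had 4.24, 6.61, 6.90 and 7.55 CPM in R26WT and 4.68, 6.33, 3.43 and 4.58 CPM in R26TIR1(F74G) mice on day 3, and 3.62, 4.48 and 3.00 against 7.17, 5.96 and 5.67 CPM on day 7. The groups overlapped on day 3 and not on day 7 (interaction 1.11, SE 0.27, adjusted p = 0.504, edgeR). The others named by size were Timmdc1 (1.4) and Plk1 (1.13), and in the other direction the predicted genes Gm13288 (-1.22), Gm13287 (-0.93) and Gm13289 (-0.88), with adjusted p from 0.532 to 0.596 (edgeR). Both shallow libraries were the highest at Gm13287 and Gm13289, with 95.9 and 88.7 CPM in day 3 R26TIR1(F74G) replicate 1 and 66.7 and 59.8 CPM in day 7 R26WT replicate 3. Without the former the interaction was -0.49 at Gm13287 and -0.47 at Gm13289, and without the latter it was -0.61 and -0.59.

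Between days, 0 of 47044 promoter windows differed, against 0.00332% of all windows tested, and 2115 reached an unadjusted p under 0.05 (4.50%), against 5.47% of all windows; DESeq2 gave 3. The windows named by size were higher on day 7 and lay at Rpl3 (0.57, SE 0.14), Poldip3 (0.55, SE 0.13) and Rnd2 (0.50, SE 0.14). Their adjusted p ranged from 0.311 to 0.718 (edgeR). Day is also the harvest of the cells and cannot be told apart from it.

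**Figure D5:**
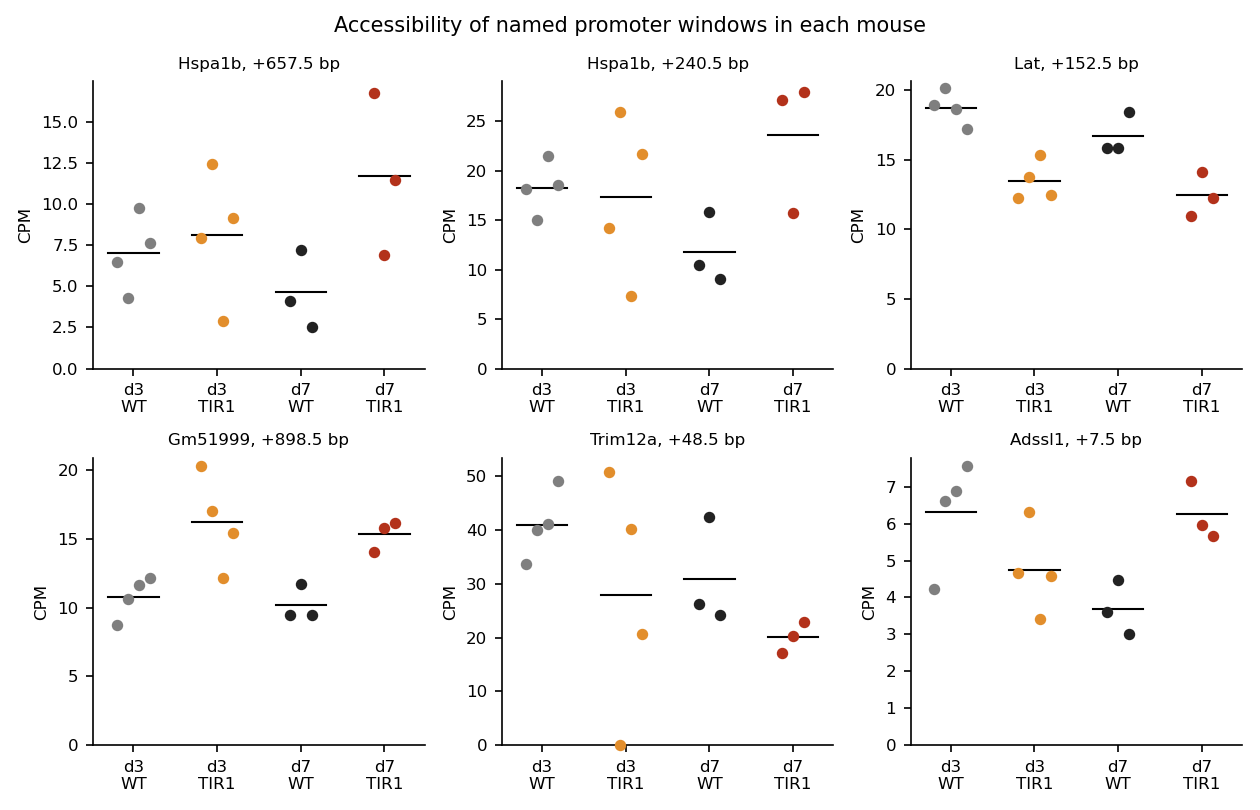
Accessibility (CPM) in each mouse, 1 point per mouse with the group mean as a line, of 6 named promoter windows, titled by gene and distance of the window centre from the start site. The day 7 R26TIR1(F74G) points of Hspa1b spread from 6.91 to 16.7 CPM at 657.5 bp, and 1 mouse of day 3 is at 0 at Trim12a. The genotypes do not overlap at Lat, as the rule that named it required.

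The windows named by size as lower on day 7 lay at Ppp4r1 (log2 fold change -0.79, adjusted p = 0.412, edgeR) and at Trim12a and Trim5, related genes of antiviral TRIM proteins on chromosome 7, and none passed. The Trim12a window from 104315409 to 104315610 had 26.2, 42.5 and 24.3 CPM in R26WT mice and 17.2, 20.3 and 22.9 CPM in R26TIR1(F74G) mice on day 7, with a log2 fold change of -0.65 (SE 0.15, adjusted p = 0.209, edgeR). It passed in 5 of 19 refits. Without R26WT replicate 2, the mouse with 42.5 CPM, the log2 fold change was -0.33 at Trim12a and, at Trim5, -0.26 against -0.64. On day 3 the same window had 33.7, 40.0, 41.1 and 49.1 CPM in R26WT mice and 50.9, 0, 40.2 and 20.8 CPM in R26TIR1(F74G) mice. The Trim5 window from 104288067 to 104288268 had 51.4, 0.483, 33.4 and 19.2 CPM in those R26TIR1(F74G) mice. Of 27436 promoter windows averaging 50 or more counts, only 6 were under 10% of their median over the mice in any library. These were 3 windows of Trim5 and 3 of Trim12a, all in day 3 R26TIR1(F74G) replicate 2, a library of 18728202 counts. Among 39314 farther windows of that depth 16 were.

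Promoter windows varied about as much between mice as other windows of the same depth. As the SD within groups of log2(CPM + 0.5), the median was 0.34 for promoter windows and 0.34 for farther windows with a mean count from 10 to 20, 0.22 and 0.23 from 50 to 100, and 0.15 and 0.15 at 500 or more. Among gene lists, the median SD was 0.15 for cell cycle genes, 0.16 for ribosomal protein genes, 0.17 for resting markers and 0.19 for heat shock genes, against 0.18 over all genes, each by its most accessible window. The SD falls with depth, and promoters of like mean count had a median of 0.16 for the cell cycle and ribosomal lists. It was 0.17 for the resting list and 0.15 for the heat shock list, so that heat shock genes varied more than promoters of like depth. Other lists stood on either side. B cell markers (0.33 against 0.27) and early response genes (0.18 against 0.16) were above promoters of like mean count. Effector cytokines (0.24 against 0.33) and CD8 T cell and NK cell markers (0.22 against 0.26) were below.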

How the data were processed

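Chromatin accessibility was measured by ATAC-seq in sorted Treg cells of 14 mice. Per the labels and the study's methods, the authors aligned reads with Bowtie2 to mm10 (GRCm38), called peaks with MACS2, merged reproducible peaks and counted reads at peak summits with featureCounts. The deposited values are raw counts in windows of 201 bp, with all 14 columns mapped to samples by the mouse named in each. Start sites came from RefSeq coordinates, with the strand from the RefSeq promoter table for 17274 genes and from GENCODE for 3941, and 416 genes without a strand were left out. Whether window starts count from 0 or 1 is not given in the sources used here.

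Groups were taken from the labels. Tests used edgeR 4.0.16 (quasi-likelihood, TMM, mean count of at least 10, Benjamini-Hochberg adjustment over all windows, 0.05) in R 4.3.3, with limma 3.58.1 and, as an alternative, DESeq2 1.42.0. Code was tested on simulated data. Day 3 and day 7 were fitted apart, then together with day as a term or an interaction. Named windows were those passing the test and, beyond these, where fewer than 3 passed in a direction, up to 3 with the largest log2 fold change among windows averaging 50 counts or more, groups that did not overlap and an unadjusted p under 0.001; for the interaction, overlap was not used. Each listed gene was represented by its promoter window with the highest mean count. The promoter windows, gene lists and rules were chosen with earlier results of these data known. Mice with the same replicate number were not paired: the correlation of deviations between same-numbered mice was from -0.04 to 0.08. Other scalings, filters, distances, a replicate block and leaving out each mouse were tried. Results for some items are not reported here.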

Additional observations from a re-analysis of the deposited data

Results flagged for a closer look

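In 80 groups of values examined, 4 held a mouse far from the others, and chance alone gives about 1 in 20, here 4. All 4 were day 3 R26TIR1(F74G) replicate 1, the shallowest library. The window 82.5 bp upstream of the start of Gm13287, a predicted gene on chromosome 4, had 95.9 CPM in that mouse, and the window 82.5 bp downstream of the start of Gm13289, a predicted gene nearby, had 88.7 CPM. The other shallow library, day 7 R26WT replicate 3, was the next highest at both, with 66.7 and 59.8 CPM. The Poldip3 window at -837.5 bp had 2.70 CPM in the same day 3 mouse, the lowest of its group. The mean log2 deviation of the B cell markers with a promoter window was 0.27 there, the highest of its group, and it ranged from -0.43 to 0.45 over the 14 mice. The part of depth in these values was not tested.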

How the results depend on the processing

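The number of promoter windows that differed on day 7 was 3 in the report. It was 0 with DESeq2, without a filter on low counts and at an adjusted p under 0.01. It was also 0 with the prefix of the mouse names as a term, which on day 7 sets apart only R26TIR1(F74G) replicate 3. It was 5 with loess offsets, 6 with the promoter share as a covariate or at an adjusted p under 0.1, and 8 at a minimum mean count of 50. Over both days the number, also 3, was 49 with DESeq2, 22 with the promoter share as a covariate, 20 at a minimum mean count of 50, 8 with loess offsets, 5 at an adjusted p under 0.1, 1 with the prefix term or within 500 bp, and 0 with TMM from farther windows or at an adjusted p under 0.01. On day 3 it was 9 with the promoter share as a covariate, against 0. Between days it was 3 with DESeq2, 2 at a minimum mean count of 50 or the promoter share as a covariate, and 1 with total counts, TMM from promoter windows, loess offsets or all transcript starts, against 0. Leaving out each mouse in turn gave 0 to 9 windows on day 7, 0 to 3 on day 3, 0 to 6 over both days, 0 to 2 for the interaction and 0 to 1 between days. On day 3 it was 3 without R26TIR1(F74G) replicate 1 and 2 without R26WT replicate 4, and for the interaction 2 without day 7 R26WT replicate 1. The difference in promoter share ranged from -2.19 to -1.01 points on day 3 and from -0.18 to 1.52 on day 7. With a replicate block the number was 8 on day 7, 0 over both days and 1 between days, and with the block and loess offsets it was 8 on day 7 and 2 between days, although the replicate numbers do not pair the mice. The cause of these differences was not tested.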

Other observations

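Some gene families stood between the extremes. Of 83 Il genes, which encode interleukins and their receptors, 36 had a promoter window (43.4%), with a median of 5.59 CPM over the most accessible windows. Of 397 Zfp genes, which encode zinc finger proteins, 299 had one (75.3%), with a median of 17.7 CPM. Of 99 Cyp genes, mostly enzymes of lipid and drug metabolism, 19 had one (19.2%), with a median of 7.03 CPM. Families were grouped after their values were seen.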
